A study of Mus musculus with 4 samples.

Results

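Hippocampal Reln-positive neurogliaform cells (NGFCs) are GABAergic interneurons that were selected here on their measured counts of unique molecular identifiers (UMIs, counted RNA molecules). Of the 26987 cells in the series, 471 met the rule. A member came from the hippocampus, had 200 to 6000 detected genes and less than 30% of its UMIs from mitochondrial genes, and carried at least 2 UMIs of Gad1 and Gad2 together, at least 3 of Hapln1, at least 1 of Lamp5 and at least 1 of Reln. It had no UMI of Mog or Crabp1, and Sst lay under 3000 CPM (counts per 1000000 of the cell's UMIs). Of 14820 hippocampal cells, 14409 passed the limits on genes and mitochondrial UMIs, 4090 of those carried the Gad1 and Gad2 UMIs without Mog, and 1067 passed every condition other than that on Reln (gated cells). The 596 gated cells without a Reln UMI served as the comparison and are called Reln-negative cells. Neurogliaform cells are small, densely branched interneurons that release GABA into the space around their axon and so give slow inhibition to many nearby dendrites. In the hippocampus, those born in the medial ganglionic eminence (MGE) and the closely related ivy cells share neuropeptide Y and neuronal nitric oxide synthase, whereas Reln (GRCm38 chr 5: 21884454-22344702) separates many neurogliaform cells from ivy cells. Reelin, the secreted Reln product, binds the receptors Vldlr and Lrp8 and acts through the adaptor Dab1.

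The study deleted Grin1, the obligatory subunit of NMDA receptors, from MGE-derived interneurons and profiled them by scRNAseq. Null mice carried Nkx2-1-Cre and Grin1 fl/fl, WT littermates carried Nkx2-1-Cre and Grin1 wt/wt, and both carried the Ai14 TdTomato reporter, which marks the MGE lineage. Tissue from mice of both sexes was taken at postnatal days 18 to 20, animals of a genotype were pooled, and TdT+ cells were sorted by FACS. Buffers for both genotypes contained TTX, APV and Actinomycin-D, which block sodium channels, NMDA receptors and transcription. Replicate 1 used 10x v2 chemistry and replicates 2 and 3 used v3, and the 5 hippocampal libraries (WT 1, WT 2, WT 3, null 1, null 2) were told apart by barcode suffix.

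The libraries held 19, 28 and 116 members in WT and 17 and 291 in null, so 61.8% of members came from null library 2 and 24.6% from WT library 3. All cells of these libraries together held 10555408, 8782181 and 20639002 UMIs in WT and 3856745 and 47338167 UMIs in null. The members' summed UMIs were 93887, 82808 and 1134186 in WT and 192075 and 4078200 in null. Median UMIs per member were 4849, 2662 and 9295 in WT and 10721 and 13977 in null, and median detected genes were 2406, 1631.5 and 3586 against 3803 and 4473. Mitochondrial genes gave a median of 1.69, 1.96 and 1.66% of a member's UMIs in WT and 1.14 and 1.86% in null. WT library 2, the shallowest, had gene levels that correlated with those of WT library 1 at r = 0.525, WT library 3 at 0.703, null library 1 at 0.577 and null library 2 at 0.68. WT library 1 correlated with the remaining libraries at 0.756, 0.71 and 0.76, and WT library 3, null library 1 and null library 2 among themselves at 0.853 to 0.955. Scrublet, which scores cells against simulated doublets, marked 2 members, both in null library 2. Among Reln-negative cells it marked 1, 0 and 6 in WT libraries 1 to 3 and 0 and 2 in null libraries 1 and 2. At most 7 barcodes were shared by any of the 10 pairs of hippocampal libraries, and 2 members carried a shared barcode.

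Id2, Cacna2d1 and Sema3c, genes of this cell class that the rule did not use, were present in the members of every library. Id2 measured 1182, 785, 799, 2223 and 908 CPM (UMIs per 1000000 UMIs of the summed cells, in the order WT libraries 1 to 3, then null libraries 1 and 2; 1179.5 ± 605, mean ± SD, n = 5 libraries), against a pooled 43.1 CPM in Sst-rich Gad cells, 197 in the other Gad cells and 9.86 in oligodendrocytes. Cacna2d1 measured 489.9, 471, 583, 427 and 572 CPM (508 ± 67.0, n = 5) against 5.53, 83.5 and 37.7 CPM in the same other cells, and Sema3c 341, 374, 332, 193 and 340.4 CPM (316 ± 70.9, n = 5) against 10.2, 37.4 and 1.02 CPM. Null library 1 had the highest Id2 and the lowest Cacna2d1 and Sema3c of the 5 libraries, and all 5 libraries lay above the other cell groups for each gene. Among the genes of the rule, Reln measured 288, 543, 267, 219 and 258 CPM, Hapln1 2833, 1775, 2837, 1708 and 2719 CPM and Lamp5 511, 592, 437, 432 and 509 CPM, values set in part by the selection itself. Reln rested on few molecules, with 1 UMI in 167 members, 2 UMIs in 101 and 3 or more in 203, whereas the median member held 31 UMIs of Hapln1 and 5 of Lamp5. Pooled Id2 was 907 CPM in members with 1 Reln UMI, 946 CPM in those with at least 2 and 898 CPM in Reln-negative cells. In the same order, Cnr1 was 69.7, 21.0 and 181 CPM, Kcnip1 73.8, 34.7 and 151 CPM, Cck 1258, 752 and 2164 CPM and Ramp3 71.5, 122 and 24.0 CPM. For these genes, members at the edge of the rule lay between the other cells. Cacna2d1, at 548, 575 and 572 CPM, was lowest in the members at the edge. These values were pooled over libraries of unequal share and depth (median 10837, 13052 and 10434 UMIs per cell), and the part of depth was not tested. The 14 members at exactly 3 Hapln1 UMIs and the 11 cells left just outside at 2 UMIs had Id2 at 403 and 393 CPM and Cacna2d1 at 175 and 136 CPM. Other genes lay further apart in these few cells, with Cck at 201 and 1861 CPM, Ramp3 at 161 and 30.3 CPM and Nkx2-1 at 67.1 and 15.1 CPM.

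Members carried the MGE and nitric oxide signature of hippocampal neurogliaform and ivy cells. Nkx2-1, the transcription factor of the MGE, was detected in 60.7% of members, 41.3% of Reln-negative cells and 0.769% of oligodendrocytes. Npy was detected in 86.0, 83.6 and 8.57% of these cells, and Nos1 in 81.1, 72.1 and 0.394%. Median depth was 12365, 10434 and 5099 UMIs in the same groups, and with each cell thinned to 1500 UMIs Nkx2-1 was seen in 13.2, 10.4 and 0.271%, Npy in 70.7, 72.7 and 2.46%, and Nos1 in 30.8, 25.7 and 0.226%. Npy and Nos1 were found together in 334 of 471 members (70.9%) and 378 of 596 Reln-negative cells (63.4%). Ndnf, a marker of superficial neurogliaform cells, was detected in 5.52% of members, 1.34% of Reln-negative cells and 0.338% of oligodendrocytes (1.92, 0.173 and 0.0678% after thinning). Genes of interneurons from the caudal ganglionic eminence (CGE) summed to 107, 254, 145, 130.2 and 129 CPM in members and 455, 331, 275, 217 and 318 CPM in Reln-negative cells, with Adarb2 the most abundant in members at 55.6 CPM. Vip was detected in 1 member and Htr3a in 5, and Lhx6, which MGE-derived interneurons keep, measured 256, 181, 263, 182 and 218 CPM.

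Reln-positive cells made up 21.1, 31.1 and 41.6% of gated cells in WT (19 of 90, 28 of 90 and 116 of 279; 31.3 ± 10.2%, n = 3) and 40.5 and 51.4% in null (17 of 42 and 291 of 566; 45.9 ± 7.73%, n = 2). The 95% Wilson intervals ran 14.0 to 30.6, 22.5 to 41.3 and 35.9 to 47.4% in WT and 27.0 to 55.5 and 47.3 to 55.5% in null. Null library 2 was highest, WT library 3 lay above null library 1, and so the genotypes overlapped. The difference of 14.7 percentage points had an exact permutation p = 0.3 (smallest possible p 0.1), and within replicates 1 and 2 it was 19.4 and 20.3 points. With every gated cell thinned to 1500 UMIs the shares became 10.0, 26.0 and 13.4% in WT and 11.9 and 13.8% in null, a difference of -3.61 points (exact permutation p = 0.9), and 0, 17, 2, 0 and 1 cells were too shallow to be thinned. The sign of the thinned difference depended on WT library 2, without which it was 1.18 points. Of all Gad cells without Mog, Reln-positive cells made up 4.21, 2.39 and 15.7% in WT (7.43 ± 7.21%) and 10.3 and 18.6% in null (14.5 ± 5.88%). WT library 3 again lay between the null libraries, and the difference of 7.03 points had an exact permutation p = 0.3, with 6.09 and 16.2 points within replicates 1 and 2. Leaving out any library kept both unthinned differences positive, from 9.21 to 20.1 and from 2.87 to 11.2 points. The share of Gad cells was not recounted after thinning, so the part of depth in it was not tested.

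**Figure D1:**
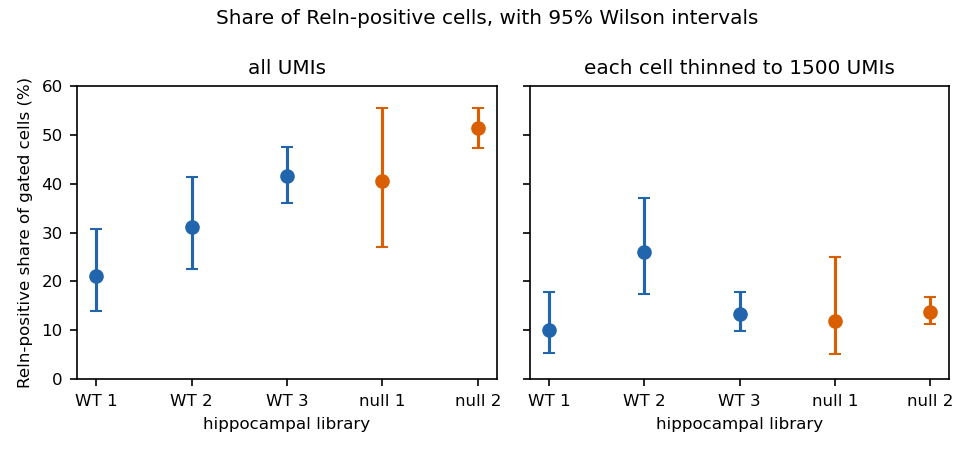
Reln-positive share of gated cells in percent for the 3 WT and 2 null libraries, as counted and with cells thinned to 1500 UMIs, with 95% Wilson intervals. The null libraries are among the higher shares as counted, and after thinning the genotypes lie close together apart from WT library 2.

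Reln-positive and Reln-negative gated cells were compared within each library by edgeR's quasi-likelihood test with the library as a block and Benjamini-Hochberg (BH) adjustment. Calls needed an adjusted p < 0.01 and a change of 0.1 or more on the natural-log scale. By these criteria 401 of 6646 genes (6.03%) differed, 168 (2.53%) higher and 233 (3.51%) lower in Reln-positive cells. Of the genes called, 241 had the same direction in every library, beside 852 (12.8%) of all genes tested. The gene-list counts given below were not tested against these shares. The median log2 difference of all genes tested was -0.01, 1242 genes had an unadjusted p < 0.05, and DESeq2 called 107 genes, all of them also called by edgeR. Without WT library 3 the number called fell to 190 and without null library 2 to 155, whereas without WT library 1, WT library 2 or null library 1 it was 483, 425 and 416. The 3 WT libraries alone gave 91 calls, thinning to 1500 UMIs 48 of 2720 genes, and a fit without the library block 1 gene, Prox1. Among 87 called genes of the rule for naming genes or of the gene lists, 39 were called whichever library was left out, 39 lost the call without at least 1 library, and 9 (among them Me3, Kcnj4, Nr2f2, Prox1os, Hs3st5 and Shisa9) were too low to be tested without WT library 3 or null library 2. Members and Reln-negative cells had the neurogliaform markers at like levels: Id2 (log2 difference 0.16, SE 0.07, edgeR BH-adjusted p = 0.173), Cacna2d1 (log2 difference -0.03, SE 0.07, edgeR BH-adjusted p = 0.92) and Sema3c (log2 difference 0.11, SE 0.08, edgeR BH-adjusted p = 0.578) gave 0 calls of 3 tested.

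Ramp3, Tmem158 and the reelin adaptor Dab1 marked the Reln-positive cells. Ramp3, a partner of the receptors for calcitonin-family peptides (chr 11: 6658521-6677475), measured 63.9, 72.5, 106, 67.7 and 110.1 CPM in Reln-positive and 48.3, 5.34, 26.0, 9.16 and 23.0 CPM in Reln-negative cells (WT libraries 1 to 3, then null libraries 1 and 2). It was higher in 5 of 5 libraries (log2 difference 2.1, SE 0.14, edgeR BH-adjusted p = 1.36e-23), and no Reln-negative library reached the lowest Reln-positive one. Tmem158 (chr 9: 123259053-123260764), a membrane protein gene induced by Ras signalling, measured 373, 157, 465, 297 and 503 against 182, 85.4, 154, 85.5 and 153 CPM. It was higher in 5 of 5 libraries (log2 difference 1.60, SE 0.09, edgeR BH-adjusted p = 4.9e-30), with only WT library 2 of the Reln-positive values within the range of the Reln-negative ones. Dab1 (chr 4: 103619359-104744844) measured 224, 193, 149.9, 125 and 137 against 39.8, 101, 61.1, 39.7 and 53.1 CPM, higher in 5 of 5 libraries without overlap (log2 difference 1.38, SE 0.12, edgeR BH-adjusted p = 6.58e-18). Vldlr measured 74.6, 157, 130.5, 93.7 and 111 against 105, 139, 70.8, 39.7 and 72.1 CPM and was higher in 4 of 5 libraries, WT library 1 having the opposite order (log2 difference 0.63, SE 0.12, edgeR BH-adjusted p = 1.4e-05), a call that ended without WT library 3 (0.55, edgeR adjusted p = 0.0112). The other reelin receptor gene Lrp8 (log2 difference -0.57, SE 0.16, edgeR BH-adjusted p = 0.0101) and the kinase gene Fyn (log2 difference -0.38, SE 0.11, edgeR BH-adjusted p = 0.0164) had negative differences that did not pass, Lrp8 being lower in 4 of 5 and Fyn in 4 of 5 libraries. Of 5 reelin pathway genes tested, 2 were higher and 0 lower, beside 2.53 and 3.51% of all genes. Their median was -0.13 against -0.01 over all genes. Reln itself defined the groups and was not counted. Dab1 was detected in 74.3% of members, 34.4% of Reln-negative cells and 24.3% of oligodendrocytes (21.2, 9.33 and 9.49% after thinning).

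The mitochondrial genes Me3 and Cox6a2 and the peptide gene Cort were also higher in Reln-positive cells. Me3, a malic enzyme of mitochondria, measured 10.7, 36.2, 25.6, 26.0 and 43.4 against 2.84, 0, 1.95, 15.3 and 8.80 CPM, and Cox6a2, a cytochrome oxidase subunit of muscle and some interneurons, 979.9, 725, 679, 489 and 821 against 353, 267, 197, 351 and 275 CPM. Me3 (higher in 5 of 5 libraries, log2 difference 2.38, SE 0.27, edgeR BH-adjusted p = 7.85e-12) and Cox6a2 (5 of 5, log2 difference 1.48, SE 0.08, edgeR BH-adjusted p = 2.7e-29) were highest in null library 2 and WT library 1 respectively, and each Cox6a2 value of Reln-positive cells lay above every Reln-negative one. The actin-bundling gene Baiap2l2 measured 181, 72.5, 155, 172 and 121 against 91.0, 21.3, 38.4, 42.7 and 25.6 CPM, the endocytic adaptor Hip1 63.9, 96.6, 90.8, 67.7 and 39.5 against 11.4, 26.7, 24.1, 12.2 and 10.2 CPM and the dendrite-orienting factor Btbd3 74.6, 278, 143, 83.3 and 125 against 68.2, 144, 42.9, 18.3 and 46.3 CPM. All 3 were higher in 5 of 5 libraries: Baiap2l2 (log2 difference 2.0, SE 0.13, edgeR BH-adjusted p = 4.4e-25), Hip1 (log2 difference 1.96, SE 0.18, edgeR BH-adjusted p = 1.13e-15) and Btbd3 (log2 difference 1.42, SE 0.12, edgeR BH-adjusted p = 2.62e-17). Hip1 was without overlap, whereas for Baiap2l2 only WT library 2, and for Btbd3 all Reln-positive values but that of WT library 2, lay within the Reln-negative range. Of 11 oxidative phosphorylation genes tested, a list without Cox6a2, Atp5b alone was called (log2 difference 0.29, edgeR BH-adjusted p = 0.00181, higher in 5 of 5 libraries), a call that ended without WT library 3 (0.34, edgeR adjusted p = 0.0153), null library 1 (0.29, edgeR adjusted p = 0.0107) or null library 2 (0.31, edgeR adjusted p = 0.0499). Cox6a1, the related subunit in the list, was not called (log2 difference -0.08, edgeR BH-adjusted p = 0.604), and 0 of 12 cytosolic ribosomal protein genes were. The share called over all genes was 6.03%.

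The peptide genes Npy and Cck were lower in Reln-positive cells, whereas Cort was higher, as were Pnoc and Tac1 over all libraries but not by the same test in the WT libraries alone. Npy (chr 6: 49822710-49829507) measured 469, 1171, 2270.4, 1182 and 2242 CPM in Reln-positive and 1501, 1873, 5449.6, 4523 and 3972 CPM in Reln-negative cells, and Cck (chr 9: 121489824-121495694) 447, 423, 1099, 1135 and 865 against 1268, 1014, 2118, 2167 and 2335 CPM. Npy (log2 difference -1.25, SE 0.09, edgeR BH-adjusted p = 2.16e-23) and Cck (log2 difference -1.21, SE 0.08, edgeR BH-adjusted p = 1.17e-25) were lower in 5 of 5 libraries, WT library 1 being lowest for Npy in both kinds of cells. Cort measured 489.9, 169, 287, 619.5 and 351 against 159, 144, 124, 223 and 178 CPM and was higher in 5 of 5 libraries (log2 difference 1.10, SE 0.09, edgeR BH-adjusted p = 7.04e-20), its Reln-positive values lying above 223 CPM in all but WT library 2. Pnoc measured 511, 254, 826, 968 and 1018 against 336, 160.1, 752, 626 and 746 CPM, and Tac1 74.6, 48.3, 42.3, 276 and 119 against 31.3, 10.7, 51.4, 109.9 and 25.3 CPM. Pnoc was higher in 5 of 5 libraries (log2 difference 0.36, SE 0.07, edgeR BH-adjusted p = 0.000102) and Tac1 in 4 of 5, all but WT library 3 (log2 difference 1.43, SE 0.16, edgeR BH-adjusted p = 4.83e-12), both with overlapping ranges, and both calls ended without null library 2 (Pnoc 0.34, edgeR adjusted p = 0.0405, Tac1 0.52, edgeR adjusted p = 0.208). In the WT libraries alone the difference was 0.26 for Pnoc (edgeR adjusted p = 0.494) and 0.01 for Tac1 (edgeR adjusted p = 0.997). Of 6 neuropeptide genes tested, 3 were higher and 2 lower, beside 2.53 and 3.51% of all genes. Their median log2 difference was 0.25 against -0.01 over all genes. Nos1 itself did not differ, at 277, 289.8, 302, 146 and 201 against 185, 267, 262, 253 and 198 CPM (log2 difference 0.04, SE 0.09, edgeR BH-adjusted p = 0.895). Gucy1a3, a subunit of the nitric oxide receptor guanylyl cyclase, measured 32.0, 12.1, 22.0, 15.6 and 11.0 against 51.2, 58.7, 77.3, 27.5 and 33.5 CPM and was lower in 5 of 5 libraries with overlap at WT library 1 only (log2 difference -1.64, SE 0.20, edgeR BH-adjusted p = 7.37e-11). Among 4 nitric oxide signalling genes tested, 2 were lower and 0 higher, with a median of -0.40.

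**Figure D2:**
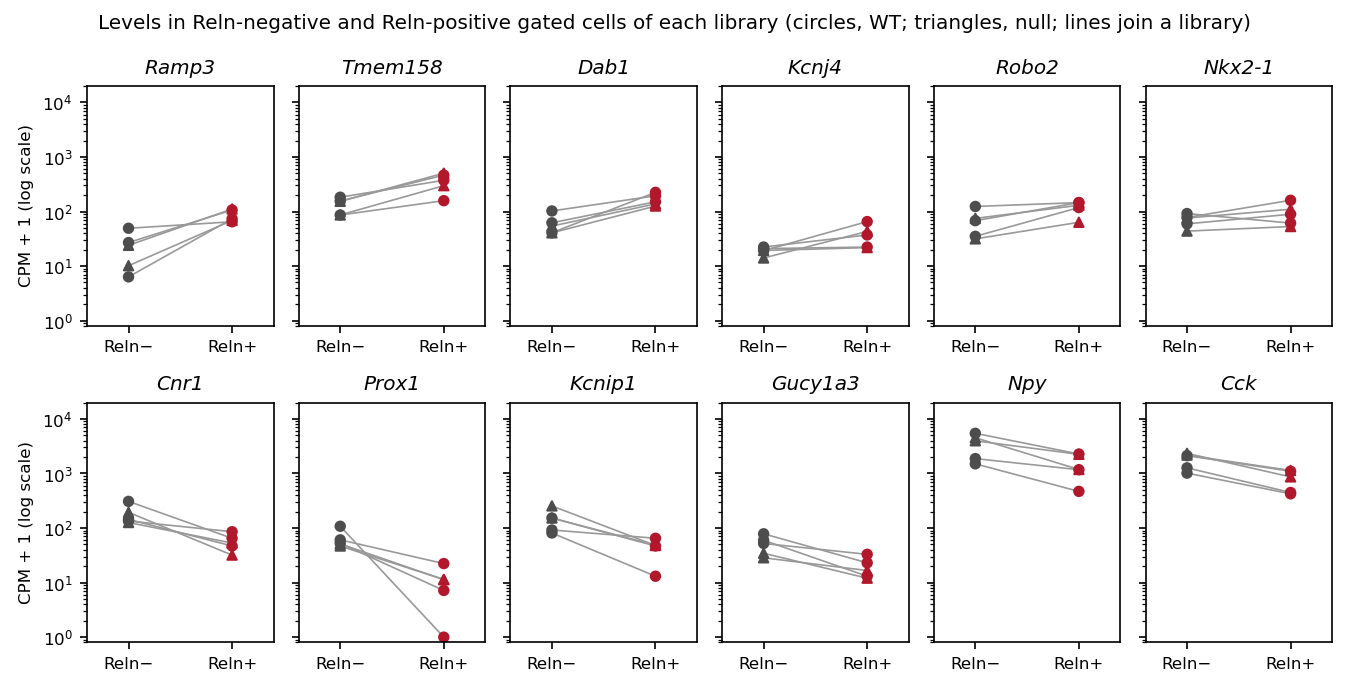
Levels of 6 genes higher and 6 genes lower in Reln-positive cells, as CPM with 1 added on a log axis, in Reln-negative and Reln-positive cells of each library (circles WT, triangles null, lines joining the cells of a library). The lines rise for the first 6 genes and fall for the others, apart from Nkx2-1 in WT library 2.

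The cannabinoid receptor gene Cnr1 and the transcription factor gene Prox1, both better known from CGE-derived interneurons, set the Reln-negative cells apart. Cnr1 (chr 4: 33924593-33948831) measured 63.9, 84.5, 45.8, 52.1 and 30.9 CPM in Reln-positive and 307, 133, 143, 125 and 193 CPM in Reln-negative cells, lower in 5 of 5 libraries without overlap (log2 difference -2.24, SE 0.13, edgeR BH-adjusted p = 2.53e-27). Prox1 (chr 1: 190118035-190170714) measured 21.3, 0, 6.17, 10.4 and 10.3 against 59.7, 107, 51.4, 45.8 and 50.3 CPM, lower in 5 of 5 libraries without overlap (log2 difference -2.46, SE 0.21, edgeR BH-adjusted p = 2.15e-17). Its antisense neighbour Prox1os, whose reads a count without strand would mix with those of Prox1, moved alike (log2 difference -2.44, SE 0.32, edgeR BH-adjusted p = 2.47e-09). Nr2f2 measured 10.7, 24.2, 12.3, 36.4 and 8.09 against 37.0, 21.3, 24.1, 24.4 and 20.7 CPM and was lower in 3 of 5 libraries (log2 difference -1.03, SE 0.28, edgeR BH-adjusted p = 0.00567). Of 4 CGE-type genes tested, 3 were lower and 0 higher, beside 3.51 and 2.53% of all genes, with a median of -1.63. The other gene, Adarb2, had a positive difference that did not pass, at 10.7, 121, 60.8, 26.0 and 59.6 against 42.7, 64.0, 49.4, 18.3 and 41.2 CPM, higher in 4 of 5 libraries (log2 difference 0.42, SE 0.14, edgeR BH-adjusted p = 0.0363). Prox1 was detected in 8.49% of members, 32.4% of Reln-negative cells and 38.3% of oligodendrocytes (1.28, 6.22 and 15.3% after thinning), and Cnr1 in 17.2, 51.8 and 0.675% (4.70, 21.1 and 0.203%). Nkx2-1 measured 159.8, 60.4, 88.2, 52.1 and 109 against 76.8, 90.7, 58.5, 42.7 and 75.0 CPM and was higher in 4 of 5 libraries, WT library 2 having the opposite order (log2 difference 0.52, SE 0.12, edgeR BH-adjusted p = 0.000611). Its call ended without WT library 3 (0.52, edgeR adjusted p = 0.0227) and without null library 2 (0.50, edgeR adjusted p = 0.2). Bcl11b was higher at 266, 386, 382, 229 and 325 against 179, 336, 192, 186 and 193 CPM in 5 of 5 libraries with overlapping ranges (log2 difference 0.73, SE 0.08, edgeR BH-adjusted p = 2.04e-11). Among 13 MGE transcription factor genes tested, 4 were higher and 2 lower, with a median of -0.10, and among 6 genes of the NFI and regional factor list 1 was higher and 2 lower. Zbtb20, a regional factor, measured 85.2, 48.3, 36.1, 15.6 and 31.9 against 59.7, 123, 89.0, 64.1 and 48.8 CPM, lower in 4 of 5 libraries (log2 difference -0.86, SE 0.15, edgeR BH-adjusted p = 3.48e-06), a call that ended without WT library 3 (-0.66, edgeR adjusted p = 0.018).

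Some genes that shape axons and contacts were called, Robo2, Unc5c and Vcan as higher and Plxna4, Pcdh10, Cd24a and Nrxn3 as lower. Robo2, a receptor for Slit proteins, measured 117, 145, 145, 62.5 and 129 CPM in Reln-positive and 34.1, 123, 67.0, 30.5 and 73.8 CPM in Reln-negative cells, and Unc5c, a netrin receptor, 298, 411, 246, 177 and 324 against 159, 320.2, 179, 109.9 and 207 CPM. Both were higher in 5 of 5 libraries with overlapping ranges, Robo2 (log2 difference 0.89, SE 0.11, edgeR BH-adjusted p = 9.04e-10) and Unc5c (log2 difference 0.57, SE 0.08, edgeR BH-adjusted p = 8.77e-08). The semaphorin receptor Plxna4 measured 21.3, 60.4, 39.7, 0 and 21.1 against 48.3, 64.0, 76.0, 82.4 and 52.8 CPM and was lower in 5 of 5 libraries (log2 difference -1.25, SE 0.16, edgeR BH-adjusted p = 1.73e-09). Guidance genes gave 3 higher and 3 lower of 17 tested, beside 2.53% higher and 3.51% lower of all genes. The protocadherin Pcdh10 measured 138, 229, 105, 88.5 and 123 against 245, 294, 216, 113 and 209 CPM, and the surface glycoprotein Cd24a 10.7, 0, 4.41, 0 and 5.88 against 68.2, 16.0, 27.9, 51.9 and 42.3 CPM. Both were lower in 5 of 5 libraries, Pcdh10 (log2 difference -0.82, SE 0.10, edgeR BH-adjusted p = 4.03e-11) with overlap and Cd24a (log2 difference -2.88, SE 0.27, edgeR BH-adjusted p = 7.74e-16) without. The matrix proteoglycan Vcan was higher in 5 of 5 libraries at 213, 217, 135, 62.5 and 106 against 73.9, 139, 91.7, 30.5 and 70.7 CPM (log2 difference 0.63, SE 0.11, edgeR BH-adjusted p = 8.84e-06), the 1 call among 5 matrix genes tested. Nrxn3, a presynaptic organizer, was lower in 5 of 5 libraries at 469, 278, 281, 292 and 259.7 against 583, 640.5, 508, 388 and 501 CPM (log2 difference -0.86, SE 0.08, edgeR BH-adjusted p = 1.02e-16), and of 14 synaptic organizer genes 0 were higher and 2 lower.

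Kcnip1, Kcnip2, Kcnd2, Kcnj4 and some receptor subunit genes also differed between the cells. Kcnip1 (chr 11: 33629339-33993152), which tunes Kv4 channels, measured 63.9, 12.1, 45.8, 46.9 and 47.3 CPM in Reln-positive and 91.0, 80.1, 151, 253 and 152 CPM in Reln-negative cells, lower in 5 of 5 libraries without overlap (log2 difference -1.73, SE 0.12, edgeR BH-adjusted p = 6.89e-23). The Kv4 pore gene Kcnd2 went the other way at 138, 60.4, 123, 125 and 110.3 against 114, 69.4, 72.8, 30.5 and 47.7 CPM, higher in 4 of 5 libraries, all but WT library 2 (log2 difference 0.98, SE 0.12, edgeR BH-adjusted p = 3.11e-10), with 0.59 in the WT libraries alone (edgeR adjusted p = 0.104). Kcnip2 measured 21.3, 12.1, 25.6, 0 and 12.8 against 73.9, 5.34, 37.7, 39.7 and 44.3 CPM and was lower in 4 of 5 libraries (log2 difference -1.46, SE 0.21, edgeR BH-adjusted p = 4.04e-08), a call that ended without null library 2 (-0.93, edgeR adjusted p = 0.0834). Of 6 genes of Kv4 channels and their partners, 1 was higher and 4 lower, beside 2.53 and 3.51% of all genes. Their median was -0.53. The inward rectifier Kcnj4 measured 21.3, 36.2, 64.4, 20.8 and 42.2 against 19.9, 21.3, 18.2, 18.3 and 13.1 CPM and was higher in 5 of 5 libraries (log2 difference 1.56, SE 0.20, edgeR BH-adjusted p = 5.8e-10). Of 10 GABA-A receptor subunit genes, 1 was higher and 4 lower (median -0.29): Gabra5 measured 10.7, 24.2, 63.5, 52.1 and 51.2 against 71.1, 64.0, 111, 101 and 72.4 CPM and Gabrd 63.9, 48.3, 173, 78.1 and 149 against 42.7, 37.4, 109.8, 58.0 and 89.2 CPM. Gabra5 was lower (log2 difference -0.68, SE 0.12, edgeR BH-adjusted p = 1.47e-05) and Gabrd higher (log2 difference 0.67, SE 0.11, edgeR BH-adjusted p = 5.74e-07) in 5 of 5 libraries each, and the Gabrd call ended without null library 2 (0.59, edgeR adjusted p = 0.0163). Grin3a, a glycine-binding NMDA receptor subunit gene, was higher in 5 of 5 libraries at 107, 121, 77.6, 46.9 and 57.9 against 91.0, 48.0, 25.4, 30.5 and 37.8 CPM (log2 difference 0.84, SE 0.14, edgeR BH-adjusted p = 3.76e-06), the 1 call among 5 NMDA receptor genes tested, and Gria1 at 1129, 1026, 1036, 1020.4 and 839 against 759, 843, 846, 693 and 692 CPM (log2 difference 0.32, SE 0.07, edgeR BH-adjusted p = 0.00024) was among 2 higher and 1 lower of 9 AMPA receptor genes. Of 9 calcium-binding protein genes, 0 were higher and 5 lower (median -0.51), with Pvalb (log2 difference -1.18, SE 0.16, edgeR BH-adjusted p = 7.18e-09) lower in 3 of 5 libraries, -1.64 without WT library 3 and no longer called without null library 2 (0.24, edgeR adjusted p = 0.779) or in the WT libraries alone (0.54, edgeR adjusted p = 0.408). Pvalb was nonetheless detected in more members (21.4%, 101 of 471) than Reln-negative cells (11.7%, 70 of 596), with 2.61% of oligodendrocytes (3.63, 4.66 and 0.790% after thinning, median depth 12365, 10434 and 5099 UMIs), so its summed level rested on a minority of cells. Heat-shock, sodium channel and HCN or Kcnq channel genes gave 0 calls of 8, 7 and 6 tested.

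Car4, Htra1, Fam46a, Ddah1, C1ql1 and Shisa9 were lower and Tmem176b and Hs3st5 higher in Reln-positive cells. The carbonic anhydrase Car4 measured 10.7, 0, 19.4, 36.4 and 33.6 CPM in Reln-positive and 39.8, 48.0, 105, 125 and 115 CPM in Reln-negative cells, and the secreted protease Htra1 10.7, 48.3, 20.3, 62.5 and 58.8 against 51.2, 58.7, 105, 122 and 204 CPM. Both were lower in 5 of 5 libraries, Car4 (log2 difference -1.94, SE 0.14, edgeR BH-adjusted p = 1.06e-22) without overlap and Htra1 (log2 difference -1.83, SE 0.13, edgeR BH-adjusted p = 4.33e-23) with overlap. Fam46a, a poly(A) polymerase gene, measured 21.3, 0, 13.2, 10.4 and 19.1 against 25.6, 58.7, 43.5, 36.6 and 58.8 CPM, and Ddah1, which degrades an inhibitor of nitric oxide synthase, 0, 12.1, 22.9, 10.4 and 11.3 against 45.5, 37.4, 73.5, 73.2 and 29.8 CPM. Both were lower in 5 of 5 libraries without overlap, Fam46a (log2 difference -1.66, SE 0.19, edgeR BH-adjusted p = 5.5e-12) and Ddah1 (log2 difference -1.64, SE 0.20, edgeR BH-adjusted p = 2.18e-10). The complement-like synaptic gene C1ql1 measured 21.3, 12.1, 16.8, 5.21 and 5.39 against 76.8, 5.34, 53.3, 24.4 and 45.4 CPM and was lower in 4 of 5 libraries, all but WT library 2 (log2 difference -2.45, SE 0.23, edgeR BH-adjusted p = 2.49e-15), and the AMPA receptor partner Shisa9 measured 0, 24.2, 4.41, 10.4 and 3.92 against 11.4, 16.0, 33.8, 42.7 and 23.9 CPM, lower in the same 4 of 5 libraries (log2 difference -2.51, SE 0.32, edgeR BH-adjusted p = 9.65e-10). In the other direction, the membrane protein gene Tmem176b measured 85.2, 84.5, 190.4, 182 and 197 against 62.6, 26.7, 72.8, 67.1 and 69.0 CPM and the heparan sulfate enzyme Hs3st5 53.3, 12.1, 26.5, 36.4 and 22.1 against 8.53, 0, 7.15, 3.05 and 8.80 CPM. Both were higher in 5 of 5 libraries without overlap, Tmem176b (log2 difference 1.41, SE 0.11, edgeR BH-adjusted p = 2.53e-20) and Hs3st5 (log2 difference 1.67, SE 0.30, edgeR BH-adjusted p = 7.7e-06).

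Several of the called genes named here did not keep the call under other settings. DESeq2 did not call Vldlr, Pnoc, Tac1, Nr2f2, Nkx2-1, Zbtb20, Plxna4, Kcnd2, Kcnip2, Kcnj4, Gabra5, Gabrd, Grin3a, Pvalb, Mbp or Cnp. In the WT libraries alone edgeR did not call Vldlr, Pnoc, Tac1, Nkx2-1, Plxna4, Unc5c, Vcan, Kcnd2, Kcnip2, Gabrd, Gria1, Pvalb, Mbp or Atp5b, and Kcnip2 was -0.70 and C1ql1, still called, -1.63. Cd24a, Me3, Hs3st5, Kcnj4, Prox1os, Shisa9 and Nr2f2 were not tested in the WT libraries alone. After thinning to 1500 UMIs the calls of Vldlr, Pnoc, Robo2, Vcan, Kcnd2, Gabrd, Grin3a, Gria1, Atp5b and Cnp ended. The thinned differences were 0.89 for Vcan (main 0.63), 1.09 for Kcnd2 (0.98), 0.94 for Grin3a (0.84) and 0.87 for Robo2 (0.89). They were 0.53 for Vldlr (0.63), 0.33 for Pnoc (0.36), 0.59 for Gabrd (0.67), 0.23 for Gria1 (0.32), 0.25 for Atp5b (0.29) and -0.29 for Cnp (-0.63). Ramp3, Me3, Hip1, Prox1, Prox1os, Car4, Cd24a, Fam46a, Ddah1, C1ql1, Shisa9, Hs3st5, Gucy1a3 and Kcnj4 were not tested after thinning. Neither were Tac1, Nr2f2, Nkx2-1, Zbtb20, Plxna4, Kcnip2, Gabra5 or Pvalb. Tmem158, Dab1, Cox6a2, Baiap2l2, Btbd3, Cort, Bcl11b, Cnr1, Npy, Cck, Kcnip1, Htra1, Nrxn3, Pcdh10 and Tmem176b were called in all 3 of these settings.

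Transcripts of other cell types were present in both kinds of cells. Oligodendrocyte marker genes summed to 1385, 954, 281, 526 and 340.4 CPM in Reln-positive and 586, 2957, 759, 235 and 375 CPM in Reln-negative cells. Mbp (log2 difference -0.57, SE 0.15, edgeR BH-adjusted p = 0.00339) and Cnp (log2 difference -0.63, SE 0.16, edgeR BH-adjusted p = 0.00359) were lower in 3 of 5 libraries, and the order was opposite in WT library 1 and null library 1. Without WT library 2 their differences were -0.34 (edgeR adjusted p = 0.193) and -0.52 (edgeR adjusted p = 0.0419), and without WT library 3 they were -0.21 (edgeR adjusted p = 0.66) and -0.22 (edgeR adjusted p = 0.71), so both calls ended, as they did with doublets left out (Mbp -0.15, edgeR adjusted p = 0.653, Cnp -0.24, edgeR adjusted p = 0.526). Astrocyte marker genes summed to 117, 36.2, 101, 62.5 and 90.5 CPM in Reln-positive and 59.7, 85.4, 70.2, 73.2 and 63.0 CPM in Reln-negative cells. Microglia genes summed to 0, 0, 77.6, 26.0 and 14.7 against 17.1, 0, 14.95, 6.10 and 15.9 CPM. In Reln-positive cells glutamatergic genes summed to 0, 0, 0.882, 0 and 0.245 CPM and endothelial genes to 0, 0, 0, 0 and 0.736 CPM. The astrocyte gene Slc1a2 was higher in Reln-positive cells (log2 difference 0.87, edgeR BH-adjusted p = 1.13e-07) and Aldoc lower (-1.16, edgeR BH-adjusted p = 0.00673), and DESeq2 called neither. Gfap, Gja1, Slc17a7, Slc17a6, Neurod6 and Neurod2 were at 0 in every library's members, and the part of these transcripts in the result was not tested. Reln was detected by few UMIs per cell, so a Reln-negative cell may hold Reln that was not captured, and the groups differ in a measured value that depends on depth.

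Grin1 (chr 2: 25291181-25319187), the gene deleted in null cells, was compared first between genotypes in the Reln-positive cells. It measured 117, 121 and 123 CPM in WT libraries 1 to 3 (120.2 ± 2.75, n = 3) and 15.6 and 15.9 CPM in null libraries 1 and 2 (15.8 ± 0.226, n = 2), so each null library lay far below each WT library. The log2 difference was -2.94 (SE 0.45, unadjusted p = 1.06e-05, edgeR BH-adjusted p = 0.0275), which is above the limit of 0.01, and within replicates 1 and 2 it was -2.83 and -2.85. Reln-negative cells gave 139, 139 and 142 CPM in WT and 33.6 and 13.6 CPM in null. No gene of 4180 tested was called (0.0%) by edgeR's quasi-likelihood test, 110 had an unadjusted p < 0.05, and DESeq2 also called 0, with 73 at that level. With replicate as a block the same edgeR test called 2 of 5278 genes (Lars2 and Xist), and 314 had an unadjusted p < 0.05. The median log2 difference was -0.04, and in 21.3% of genes the WT and null libraries did not overlap. Without null library 1 the number called was 6 and without null library 2 it was 7, fits in which null had 1 library and the spread came from WT alone, and without WT library 2 Xist alone was called (edgeR adjusted p = 9.61e-07). Xist, the transcript of the inactive X chromosome, was named after its values were seen: it measured 746, 0 and 399 CPM in WT and 0 and 0 CPM in null, at least 567.9-fold more in pooled WT cells if null held 3 UMIs. The Y-linked gene Ddx3y measured 85.2, 157 and 45.8 CPM in WT and 93.7 and 85.6 CPM in null, so Y-linked RNA was present in every library and Xist RNA only in WT libraries 1 and 3. In Reln-negative cells Xist measured 725, 0 and 388 CPM in WT and 0 and 0 CPM in null. Xist RNA was thus absent from both null libraries and from WT library 2, although mice of both sexes were used. The libraries differed in Xist RNA within WT as well as between genotypes, and the part of sex in the genotype values was not tested.

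Among genes whose libraries did not overlap between genotypes, those with the lowest unadjusted p in each direction are given as values only, for none passed the test (edgeR BH-adjusted p = 0.991 for each). Tac1 measured 74.6, 48.3 and 42.3 CPM in WT and 276 and 119 CPM in null (log2 difference 1.89, SE 0.49), and Itm2b, which encodes an inhibitor of amyloid formation, 373, 447 and 540.5 against 1140.2 and 1343 CPM (1.42). All of these genes were picked for not overlapping between genotypes, among them Arl6ip5 at 95.9, 96.6 and 136 against 312 and 244 CPM (1.24). Slc25a11, a mitochondrial carrier gene, measured 95.9, 145 and 152 against 312 and 313 CPM (1.20), and 1110008F13Rik 128, 60.4 and 125 against 276 and 278 CPM (1.32). Lower in null were Chd5, a chromatin remodeller of neurons, at 149, 568 and 164 against 88.5 and 97.3 CPM (-1.60), and Arglu1 at 234, 459 and 177 against 93.7 and 127 CPM (-1.32). The ubiquitin ligase Rnf6 at 117, 133 and 94.3 against 46.9 and 49.0 CPM (-1.20) and the SUMO protease Senp7 at 74.6, 109 and 76.7 against 36.4 and 38.7 CPM (-1.14) were also lower in both null libraries. WT library 2 was the highest for all 4 of these genes. Grin2b, which encodes a partner subunit of Grin1, measured 426, 761 and 398 CPM in WT and 255 and 259.7 CPM in null (-1.05), each null library below each WT library. Of 5 NMDA receptor genes tested, Grin1 included, 0 were called, with a median of -0.82 against -0.04 over all genes. Activity-regulated genes summed to 405, 1727 and 493 CPM in WT and 193 and 1815 CPM in null, with Fos at 10.7, 374 and 21.2 and 15.6 and 377 CPM, high in library 2 of each genotype. Oligodendrocyte marker genes were highest in WT library 1, and their part in the result was not tested.

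**Figure D3:**
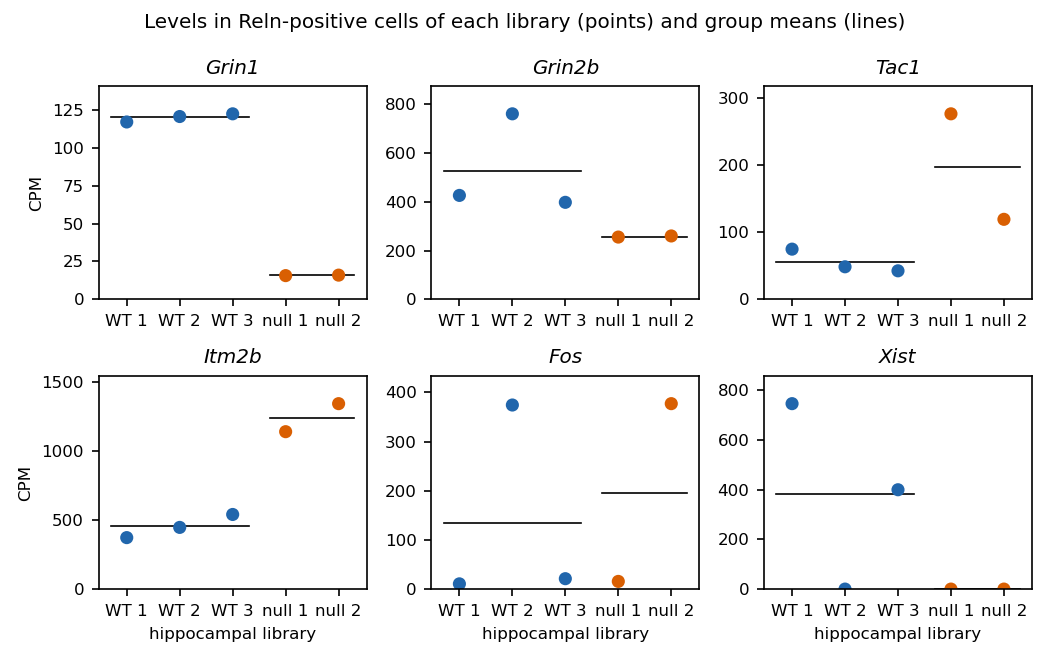
Level in CPM of Grin1, Grin2b, Tac1, Itm2b, Fos and Xist in Reln-positive cells of each library, WT in blue and null in orange, with lines at the group means. Grin1 and Grin2b are lower and Itm2b higher in both null libraries, Fos is high in library 2 of each genotype, and Xist is present in WT libraries 1 and 3 only.

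In WT, hippocampal Reln-positive cells (19, 28 and 116 cells) were set beside frontal-cortex cells that met the same rule (23 and 30 cells in cortical libraries 2 and 3, library 1 with 9 cells being left out). No gene of 2417 tested was called (0.0%) by edgeR's quasi-likelihood test, 40 had an unadjusted p < 0.05, and DESeq2 called 0, with 27 at that level. Leaving out cortical library 3 gave 1 call, Xist (edgeR adjusted p = 0.000674), and leaving out any other library gave 0. Each difference in the next sentences had an edgeR BH-adjusted p = 1 and is given as a value only. Nrip3, a nuclear receptor cofactor gene, measured 234, 229 and 138 CPM in hippocampus and 59.4 and 36.8 CPM in cortex (log2 difference 2.12, SE 0.51, unadjusted p = 0.00141), each hippocampal library above both cortical ones. The sulfotransferase Chst2 measured 479, 96.6 and 249.5 against 69.3 and 96.5 CPM (1.73) and the semaphorin receptor Nrp2 149, 72.5 and 119 against 0 and 36.8 CPM (2.33). Nrgn, a calmodulin-binding protein of forebrain neurons, differed in the other direction at 0, 36.2 and 92.6 against 238 and 418 CPM (-2.44), as did Zbtb20 at 85.2, 48.3 and 36.1 against 208 and 133 CPM (-1.72) and 2900055J20Rik at 117, 48.3 and 130.5 against 317 and 280.2 CPM (-1.43). Npy measured 469, 1171 and 2270.4 against 3278 and 4718 CPM (-1.55). Hippocampal libraries lay below both cortical libraries for Nrgn, Zbtb20, 2900055J20Rik and Npy, genes that were picked among the 378 of 2417 (15.6%) whose libraries did not overlap. Among other genes higher in hippocampus, Igfbp4 measured 383, 109 and 145 against 89.1 and 50.5 CPM (1.68), and Rbms3 309, 169 and 179 against 89.1 and 110.2 CPM (1.13). The cortical sums held few cells, and regional and capture differences cannot be told apart with them.

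Whether genotype acted differently in Reln-positive and Reln-negative cells was tested in all 10 sums, and edgeR's quasi-likelihood test called 6 of 6646 genes (0.0903%). An unadjusted p < 0.05 was reached by 174 genes, and DESeq2 called 0, with 15 at that level. The ratios of Reln-positive to Reln-negative cells did not overlap between WT and null libraries in 2 of the 6 called genes, Pvalb and Cd9. The share over all genes tested was 16.8%. For Tac1, Igfbp2 and Bcas1 the ratios of the genotypes overlapped. Pvalb (chr 15: 78191114-78206400) measured 10.7, 133 and 69.7 CPM in WT and 5.21 and 63.8 CPM in null Reln-positive cells, and 0, 133 and 42.9 and 58.0 and 215 CPM in Reln-negative cells (log2 difference -2.34, SE 0.30, edgeR BH-adjusted p = 3.81e-11). The tachykinin gene Tac1 (chr 6: 7554879-7565834) measured 74.6, 48.3 and 42.3 and 276 and 119 CPM in Reln-positive, and 31.3, 10.7 and 51.4 and 109.9 and 25.3 CPM in Reln-negative cells (log2 difference 1.96, SE 0.32, edgeR BH-adjusted p = 2.61e-06). The summed level of Pvalb, carried by a minority of cells, was lower in Reln-positive than in Reln-negative cells in both null libraries and alike or higher in the WT libraries, and Tac1 was higher in Reln-positive cells in every library but WT library 3. Cd9 (log2 difference 3.65, SE 0.69, edgeR BH-adjusted p = 0.000176) measured 0, 24.2 and 7.05 and 0 and 10.5 CPM in Reln-positive, and 11.4, 96.1 and 74.8 and 0 and 7.67 CPM in Reln-negative cells. Cd9 is abundant in myelinating cells, and it was highest in the Reln-negative cells of WT library 2. Igfbp2 (log2 difference 1.07, SE 0.23, edgeR BH-adjusted p = 0.00359) and the myelin gene Bcas1 (log2 difference 2.38, SE 0.53, edgeR BH-adjusted p = 0.00668) were named after their values were seen. Igfbp2 measured 32.0, 133 and 275 and 41.6 and 301 CPM in Reln-positive, and 17.1, 112 and 166 and 30.5 and 85.2 CPM in Reln-negative cells, and Bcas1 10.7, 193 and 8.82 and 0 and 8.83 CPM, and 5.69, 278 and 105 and 0 and 8.23 CPM. Igfbp2 was higher in the Reln-positive cells of all 5 libraries, and Bcas1 was highest in WT library 2. Oligodendrocyte markers reached their highest sum in the Reln-negative cells of that library, at 2957 CPM. In WT library 3 Bcas1 was 105 CPM in Reln-negative and 8.82 CPM in Reln-positive cells. Scrublet marked 6 Reln-negative cells and 0 members of WT library 3 as doublets. The part of oligodendrocyte transcripts in the result was not tested.

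The calls of Pvalb, Tac1, Cd9, Igfbp2 and Bcas1 each ended when some library was left out. Without WT library 3 no gene was called: Pvalb was -1.87 (edgeR adjusted p = 0.749), Tac1 0.54 (edgeR adjusted p = 0.989), Igfbp2 1.42 (edgeR adjusted p = 0.966) and Bcas1 0.60 (edgeR adjusted p = 0.989). Without null library 2, which left null library 1 alone in null, the calls of these genes ended. Pvalb was then -4.00, Tac1 1.25 and Igfbp2 -0.26. Cd9 and Bcas1 were at 0 CPM in both kinds of cells of null library 1. Their values in this fit, 3.19 and 2.28, therefore rested on no null counts and do not show whether the differences held. Without null library 1 Igfbp2 was 1.17 (edgeR adjusted p = 0.0266), and without WT library 2 Igfbp2 was 1.02 (edgeR adjusted p = 0.0541). The number called was 11, 4 and 0 without WT libraries 1, 2 and 3 and 6 and 2 without null libraries 1 and 2, by the same edgeR test with BH adjustment. Leaving out doublets kept Pvalb, Tac1 and Igfbp2, whereas Bcas1 fell to 0.70 and was no longer called, and Cd9 was not tested. Thinning to 1500 UMIs, after which Pvalb, Tac1 and Cd9 were too low to be tested, gave 0 calls.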

How the data were processed

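Members and gene lists were chosen with earlier results of these data known. The UMI count matrices deposited by the authors were used without realignment (mm10, gene ends lengthened by 4 kb); their methods name Cell Ranger 2.1.1 and the matrix header software 3.0.2. Cells were summed per library and group, sums under 10 cells were left out (cortical WT library 1, 9 cells), and libraries were matched to replicates by cell numbers. R 4.3.3, edgeR 4.0.16 (quasi-likelihood test after filterByExpr and TMM, BH adjustment), DESeq2 1.42.0, Python 3.11.15, scanpy 1.11.5 (Scrublet, rate 0.06) and scipy 1.17.1 were used, with GENCODE vM21 coordinates. Genes named were list genes and, at 20 CPM or more, the 10 largest called differences per direction that had 1 direction in every library, or, where none was called, the 5 lowest p per direction among non-overlapping genes. Alternatives tried were DESeq2, library-size scaling, no low-count filter, mitochondrial genes out, Reln of 2 or more UMIs, stricter cells (1000 genes, 10% mitochondrial), doublets out, thinning, other blocks and each library left out. The results of some genes, 1 called interaction gene included, are not reported here.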

Additional observations from a re-analysis of the deposited data

Results flagged for a closer look

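These genes stood out because their genotype difference (null minus WT, log2) in Reln-positive cells differed from that in Reln-negative cells by edgeR's quasi-likelihood interaction test with BH adjustment. Pvalb: -2.34 (SE 0.30, edgeR adjusted p = 3.81e-11), with 10.7, 133 and 69.7 CPM in WT and 5.21 and 63.8 CPM in null Reln-positive cells, beside 0, 133 and 42.9 and 58.0 and 215 CPM in Reln-negative cells. Tac1: 1.96 (SE 0.32, edgeR adjusted p = 2.61e-06), with 74.6, 48.3 and 42.3 CPM in WT and 276 and 119 CPM in null Reln-positive cells, beside 31.3, 10.7 and 51.4 and 109.9 and 25.3 CPM in Reln-negative cells. Cd9: 3.65 (SE 0.69, edgeR adjusted p = 0.000176), with 0, 24.2 and 7.05 CPM in WT and 0 and 10.5 CPM in null Reln-positive cells, beside 11.4, 96.1 and 74.8 and 0 and 7.67 CPM in Reln-negative cells. Igfbp2: 1.07 (SE 0.23, edgeR adjusted p = 0.00359), with 32.0, 133 and 275 CPM in WT and 41.6 and 301 CPM in null Reln-positive cells, beside 17.1, 112 and 166 and 30.5 and 85.2 CPM in Reln-negative cells. Bcas1: 2.38 (SE 0.53, edgeR adjusted p = 0.00668), with 10.7, 193 and 8.82 CPM in WT and 0 and 8.83 CPM in null Reln-positive cells, beside 5.69, 278 and 105 and 0 and 8.23 CPM in Reln-negative cells. The ratios of Reln-positive to Reln-negative cells overlapped between the WT and null libraries for Tac1, Igfbp2 and Bcas1, and not for Pvalb and Cd9. Each call ended when some library was left out, Bcas1 fell to 0.70 with doublets left out, and DESeq2 called 0 genes.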

How the results depend on the processing

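Values changed direction in these settings: Pvalb between Reln-positive and Reln-negative cells was 0.54 in WT libraries only and 0.24 without null library 2 (main -1.18, and -1.64 without WT library 3); the genotype interaction was -0.58 for Bcas1 after thinning to 1500 UMIs (main 2.38) and -0.26 for Igfbp2 without null library 2 (main 1.07, and 1.42 without WT library 3); and the Reln-positive share of gated cells differed by -3.61 points after thinning (main 14.7).

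For the genotype comparison (0 called by edgeR) the number called was 2 at an adjusted p under 0.05 (Grin1, Xist), 16 without the low-count filter, 1 with Reln at 2 or more UMIs, where WT library 1 also fell under 10 cells and was left out (Yam1, -4.11, edgeR adjusted p = 0.00978) and 2 with replicate as a block (Lars2, -4.30, edgeR adjusted p = 0.000438, and Xist), and from 0 to 7 with a library left out. Reln-positive against Reln-negative cells (401) gave 628 at an adjusted p under 0.05, 107 with DESeq2, 48 after thinning, 1 without the library block, 91 in WT libraries only, and 155 to 483 with a library left out. The region comparison (0) gave 3 without the low-count filter (Nrgn, Xist, mt-Atp6) and 0 to 1 with a library left out. The interaction (6) gave 0 with DESeq2, 3 without doublets, 0 after thinning, and 0 to 11 with a library left out. The share differences ranged from 9.21 to 20.1 points of gated cells and from 2.87 to 11.2 points of Gad cells with a library left out. The cause was not tested. Replicate deviations of WT and null libraries correlated at 0.155, and of hippocampus and cortex at 0.368.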

Other observations

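Activity-regulated genes summed to 405, 1727, 493, 193 and 1815 CPM in Reln-positive cells (WT libraries 1 to 3, then null libraries 1 and 2), with Fos at 10.7, 374, 21.2, 15.6 and 377 CPM, high in library 2 of both genotypes. Oxidative phosphorylation genes summed to 10332, 9178, 12398, 14203 and 13264 CPM and cytosolic ribosomal protein genes to 11407, 6582, 8966, 9085 and 7715 CPM in Reln-positive cells. The TdTomato transcript measured 660.4, 471, 935, 640.4 and 1021 CPM in Reln-positive and 728, 672, 1195, 781 and 1292 CPM in Reln-negative cells, lower in 5 of 5 libraries (log2 difference -0.36, SE 0.07, edgeR BH-adjusted p = 7.88e-05).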
